A study of Mus musculus with 20 samples.

Results

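The 10 genes described here are the core genes of the circadian clock and 1 of its output genes, taken from a list of gene symbols and found once each among the 47729 genes of every library: *Arntl*, *Clock*, *Per1*, *Per2*, *Per3*, *Cry1*, *Cry2*, *Nr1d1*, *Nr1d2* and *Dbp*. They were measured in 20 libraries from the hippocampus and cortex of 10 C57Bl/6J mouse pups at postnatal day 7 (P7). Mice 1 to 5 were wildtype (WT). Mice 6 to 10 were Ube3aOE mice, which carry extra *Ube3a* copies on a bacterial artificial chromosome with the gene's own flanking sequence. The study calls such mice Ube3a+2 after their 2 extra copies and worked mainly with 1 transgenic line, in which the transgene lies on chromosome 3. WT and Ube3aOE mice keep their endogenous *Ube3a*, whose paternal copy is silent in neurons. Each tissue of each mouse gave 1 library of stranded mRNA, so every cortex library has a hippocampus partner from the same animal. *Arntl* encodes BMAL1, a reported target of UBE3A, a ubiquitin ligase that tags proteins for degradation. The counts measure mRNA and not BMAL1 protein, and the sources used here give no clock time at which the pups were collected.

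The mammalian clock is a feedback loop of transcription. BMAL1 and CLOCK form a dimer that binds E-boxes and switches on the *Per* and *Cry* genes, whose proteins return to the nucleus and repress the dimer. A further loop runs through *Nr1d1* and *Nr1d2*, which encode the nuclear receptors REV-ERBα and REV-ERBβ and repress *Arntl* by way of RORE sites, while DBP activates genes with D-boxes. In adult brain many of these transcripts rise and fall over the day in the hypothalamic pacemaker and, with different phase, in forebrain. In rodents the rhythms of many tissues are still maturing in the first weeks after birth.

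Reads counted on genes numbered from 14191093 to 16752326 per library, which was 69.7% to 81.2% of all reads, and the cortex library of WT mouse 2 was lowest in both. *Ube3a*, which checks the labels, ranged from 54.4 to 76.8 CPM (counts relative to the library total, scaled by edgeR's TMM factors) in the 10 WT libraries and from 129.6 to 195 CPM in the 10 Ube3aOE libraries. In 2 WT mice the sex-linked genes of both tissues went against the labelled sex. Markers of hippocampus and neocortex fit the labelled tissues: the summed CPM of 6 hippocampal markers was 599.6 to 839 in hippocampus and 198 to 409 in cortex, and that of 6 neocortical markers was 155 to 379.5 in hippocampus and 496 to 815 in cortex. The highest hippocampal sum in cortex was that of Ube3aOE mouse 8. In the hippocampus libraries the summed CPM of 5 choroid plexus markers reached 1936 in Ube3aOE mouse 7, that of 5 thalamic markers 1125 in Ube3aOE mouse 10, and that of 5 striatal markers 458 in Ube3aOE mouse 9, against medians of 13.0, 199.9 and 32.6 for that group. Among the WT hippocampus libraries, the thalamic sum reached 478 in mouse 4 (group median 131) and the neocortical sum 379.5 in mouse 2 (group median 200).

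All 10 genes are protein-coding and lie on mouse build GRCm38 (GENCODE M21) as follows. The activators are *Arntl* on the plus strand of chr7:113207465-113314126 and *Clock* on the minus strand of chr5:76209868-76304792. The repressors are *Per1* (chr11:69095217-69109960, plus strand), *Per2* (chr1:91415982-91459324, minus strand), *Per3* (chr4:151003652-151044665, minus strand), *Cry1* (chr10:85131700-85185064, minus strand) and *Cry2* (chr2:92403646-92434043, minus strand). *Nr1d1* is on the minus strand of chr11:98767932-98775333 and *Nr1d2* on the minus strand of chr14:18204054-18239127, and *Dbp* is on the plus strand of chr7:45705088-45710203. *Dbp* shares 539 exon bases (18.0% of its own) with *Sphk2* on the opposite strand, *Nr1d1* shares 263 (8.55%) with *Thra* and *Cry2* shares 295 (4.67%) with *D930015M05Rik*. The library kit marks strand, but the strand setting of the counting is not given in the sources used here, so counts over these shared bases are uncertain.

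Letter matches to motifs known from these loops are shown for the genes whose start window holds one. RefSeq start windows on GRCm38.p6, each 250 bases before to 50 bases after a start, were available for 9 of the 10 genes (13 windows). They were searched on both strands for the E-box CACGTG, the E'-box CACGTT, the D-box TTATGTAA or TTACGTAA, the RORE and the cAMP response element TGACGTCA. Of the 13 windows, 2 held an E-box (7.15% of all 32851 windows), 3 an E'-box (4.68%), 1 a D-box (1.06%), 1 a RORE (0.773%) and none the cAMP response element (1.79%), and no match overlapped another. The 250 bases before the start of *Per1* (plus strand, chr11:69098699-69098948), *Per3* (minus strand, chr4:151044666-151044915), *Cry1* (minus strand, chr10:85185055-85185304) and *Nr1d1* (minus strand, chr11:98775378-98775627) follow, 5′ to 3′, with each match in capitals. The match in *Per1* is an E-box, those in *Per3* are D-boxes, those in *Cry1* are an E'-box read on the other strand and then an E-box, and that in *Nr1d1* is an E'-box read on the other strand. The E'-box of *Cry2* and the RORE of *Arntl* are given with 10 bases on each side, the first 166 bases before the start and the second 28 bases after it.
Per1: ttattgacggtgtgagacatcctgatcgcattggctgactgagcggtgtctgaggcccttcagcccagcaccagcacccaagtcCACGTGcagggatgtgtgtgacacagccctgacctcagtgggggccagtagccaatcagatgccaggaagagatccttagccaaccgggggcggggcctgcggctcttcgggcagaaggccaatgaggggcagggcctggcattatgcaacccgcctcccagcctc
Per3: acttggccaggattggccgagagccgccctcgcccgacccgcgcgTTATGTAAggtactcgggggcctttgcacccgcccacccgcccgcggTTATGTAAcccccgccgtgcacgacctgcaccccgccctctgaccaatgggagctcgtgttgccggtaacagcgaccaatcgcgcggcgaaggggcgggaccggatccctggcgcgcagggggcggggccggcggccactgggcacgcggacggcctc
Cry1: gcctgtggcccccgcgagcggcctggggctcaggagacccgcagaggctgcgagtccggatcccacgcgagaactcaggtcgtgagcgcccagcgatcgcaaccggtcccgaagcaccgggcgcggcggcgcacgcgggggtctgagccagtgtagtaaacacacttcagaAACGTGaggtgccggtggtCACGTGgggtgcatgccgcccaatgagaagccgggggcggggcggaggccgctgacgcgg
Nr1d1: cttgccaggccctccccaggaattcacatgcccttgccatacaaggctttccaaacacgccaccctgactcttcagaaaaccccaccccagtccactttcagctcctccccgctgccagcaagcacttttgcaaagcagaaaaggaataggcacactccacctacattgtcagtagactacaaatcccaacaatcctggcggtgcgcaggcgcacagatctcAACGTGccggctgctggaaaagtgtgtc
Cry2: acatggtgggAACGTGagggggcgga
Arntl: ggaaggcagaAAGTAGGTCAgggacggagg
These are matches of letters and not measured binding sites. The windows of *Clock*, *Nr1d2* and *Dbp* held none of the 5 motifs, which says only that these letters are not in those windows. *Per1* and *Cry1*, with an E-box, and *Cry2* and *Nr1d1*, with an E'-box, were all lower in hippocampus than in cortex. Of the genes whose windows held neither, *Arntl*, *Per3*, *Nr1d2* and *Dbp* were also lower and *Clock* was higher.

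How strongly each gene was expressed was compared per kilobase of exon, since the genes differ in length. In cortex, mean levels over 10 libraries ran from *Nr1d1* (21.1 ± 4.08 CPM per kb, SD) and *Cry2* (19.2 ± 1.07) through *Per1* (9.53 ± 0.964), *Cry1* (7.32 ± 1.12), *Dbp* (6.20 ± 0.988), *Nr1d2* (5.90 ± 0.725), *Arntl* (5.15 ± 0.617), *Clock* (2.88 ± 0.311) and *Per2* (1.84 ± 0.283) to *Per3* (1.33 ± 0.168). In hippocampus the order differed at the top only, with *Cry2* (17.0 ± 1.58) before *Nr1d1* (11.8 ± 2.08), and the other means were *Per1* 8.21 ± 0.915, *Cry1* 5.29 ± 1.03, *Dbp* 5.11 ± 0.698, *Nr1d2* 4.78 ± 0.836, *Arntl* 4.28 ± 0.387, *Clock* 3.45 ± 0.309, *Per2* 2.34 ± 0.365 and *Per3* 1.05 ± 0.137 CPM per kb. Of neighbours in this order, *Cry1* and *Dbp*, *Dbp* and *Nr1d2*, and *Nr1d2* and *Arntl* overlapped in range in both tissues, and *Cry1* exceeded *Dbp* in only 5 of 10 mice in hippocampus. *Nr1d1* and *Per1*, and *Arntl* and *Clock*, overlapped in hippocampus, and *Nr1d1* and *Cry2*, *Per1* and *Cry1*, and *Per2* and *Per3* in cortex. On this scale *Arntl* exceeded its partner *Clock* in all 10 mice in both tissues. That order rests on the exon lengths used, 7523 bases for *Arntl* and 13727 for *Clock*, which join all annotated exons. Before division by length, mean *Arntl* and *Clock* were 32.2 and 47.3 CPM in hippocampus and 38.7 and 39.5 CPM in cortex. All 10 genes passed the filter on low counts, with 91 (*Per2*) to 2167 (*Cry2*) reads per library.

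**Figure D1:**
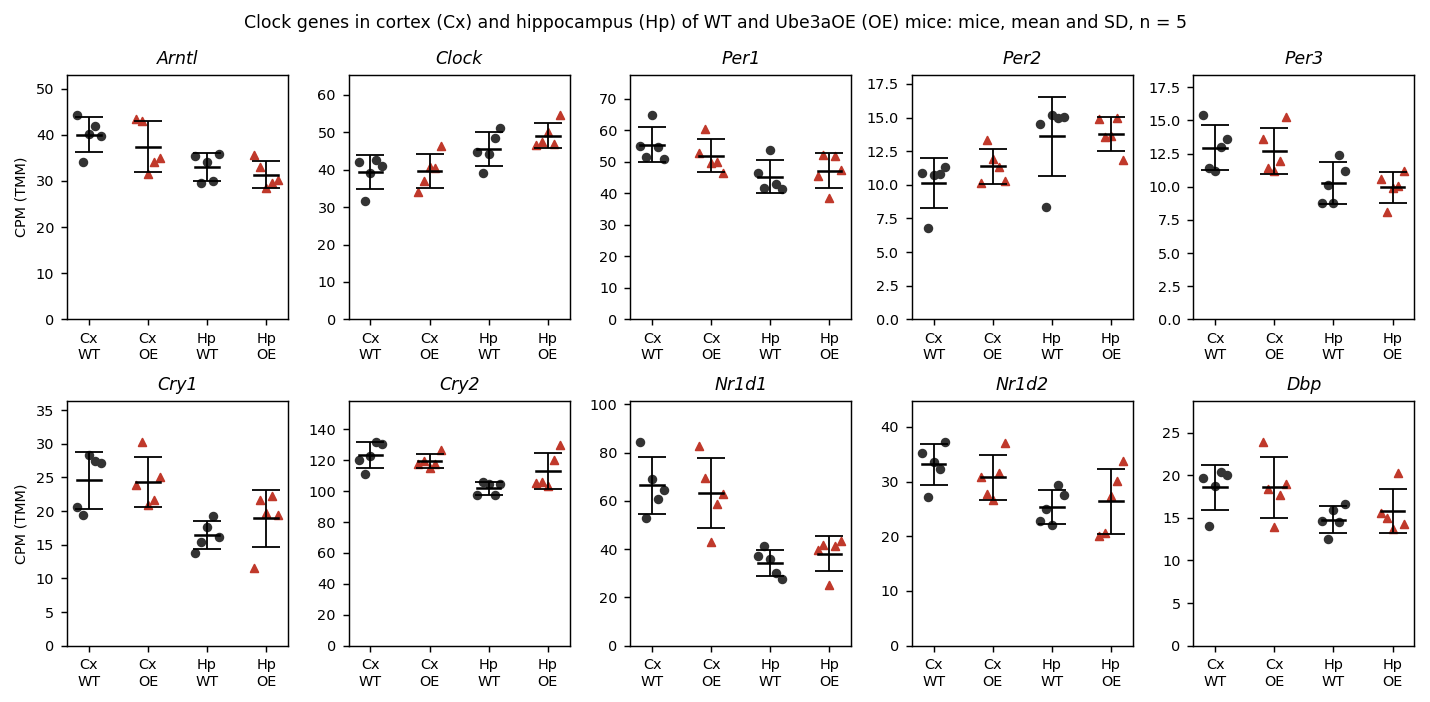
CPM of the 10 clock genes (vertical axes from 0, 1 panel a gene) in cortex and hippocampus of WT mice (black circles) and Ube3aOE mice (red triangles), with the mean and SD of 5 mice. *Nr1d1* shows the widest gap between cortex and hippocampus, and *Clock* and *Per2* are higher in hippocampus. The genotypes overlap for every gene in both tissues, which is likely for any gene with 5 mice a group.

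The first comparison asked how the clock genes differ between the tissues, averaged over the genotypes. Of the 10 genes, 8 were lower and 2 were higher in hippocampus than in cortex (edgeR's quasi-likelihood test, Benjamini-Hochberg adjusted p from 1.01e-05 to 0.0159). The same test called 50.9% of the 15661 genes tested, 25.6% lower and 25.3% higher, so a call by itself was common. Among the clock genes the median log2 fold change was -0.27 and the median of its size 0.29, beside -0.01 and 0.20 over all genes tested. In these bulk samples, fewer cells that express a gene and less RNA per cell cannot be told apart. Of the markers, 3 of 4 neuronal genes were lower in hippocampus (summed CPM 3658 to 4613, against 4482 to 5153 in cortex), 3 of 4 astrocyte genes were higher (852 to 1199 against 548 to 790), and all tested markers of choroid plexus (3) and thalamus (4) were higher. Their part in the differences of the clock genes was not tested.

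*Nr1d1*, which encodes REV-ERBα, differed most. In cortex it had 84.5, 53.1, 69.2, 60.7 and 64.6 CPM in WT mice 1 to 5 and 82.7, 69.5, 43.0, 58.7 and 63.0 CPM in Ube3aOE mice 6 to 10. In hippocampus it had 37.0, 41.1, 35.8, 30.0 and 27.7 CPM and 39.4, 41.5, 25.3, 41.1 and 43.4 CPM in the same mice. Hippocampus was lower in all 10 mice, although the lowest cortex library (mouse 8) lay just under the highest hippocampus library (mouse 10). The log2 fold change was -0.84 (SE 0.12, adjusted p = 1.01e-05), the only one of the 10 past a border of 0.5, which 19.2% of all genes passed together with the test. Its paralog *Nr1d2* (REV-ERBβ) ranged from 26.7 to 37.3 CPM in cortex and from 20.0 to 33.8 CPM in hippocampus. It was lower in hippocampus in 9 of 10 mice (log2 fold change -0.31, SE 0.09, adjusted p = 0.00953), but without the 2 mice whose sex-linked counts go against their labels it no longer passed (log2 fold change -0.25, adjusted p = 0.0861, the highest over all alternatives, which began at 0.00236).

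The activators went in opposite directions. *Arntl* had 44.2, 34.1, 40.2, 42.0 and 39.7 CPM in cortex of WT mice 1 to 5 and 43.4, 43.0, 31.4, 34.2 and 35.0 CPM in cortex of Ube3aOE mice 6 to 10. In hippocampus it had 35.4, 29.7, 34.0, 30.0 and 35.9 CPM and 35.6, 33.1, 28.5, 29.5 and 30.2 CPM. It was thus lower in hippocampus in all 10 mice, by 0.27 on the log2 scale (SE 0.07, adjusted p = 0.00228), while the ranges of the tissues overlapped. *Clock*, whose protein is the partner of BMAL1, had 42.2, 31.6, 39.1, 42.7 and 40.9 CPM in WT cortex and 34.2, 37.0, 40.7, 40.4 and 46.2 CPM in Ube3aOE cortex. In hippocampus it had 44.8, 39.0, 44.1, 48.5 and 51.2 CPM in WT mice and 46.7, 47.4, 50.1, 46.9 and 54.5 CPM in Ube3aOE mice. Every mouse had more *Clock* in hippocampus, with a log2 fold change of 0.26 (SE 0.06, adjusted p = 0.00173).

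The repressors were mostly lower in hippocampus, with *Per2* as the exception. *Per2* had 10.8, 6.80, 10.8, 10.8 and 11.3 CPM in WT cortex and 10.1, 13.3, 11.9, 11.3 and 10.3 CPM in Ube3aOE cortex. In hippocampus it had 14.5, 8.37, 15.2, 14.9 and 15.0 CPM in WT mice and 14.9, 13.5, 13.6, 15.0 and 11.9 CPM in Ube3aOE mice. All 10 mice had more *Per2* in hippocampus (log2 fold change 0.35, SE 0.10, adjusted p = 0.00808), and WT mouse 2 was the lowest in both tissues. *Per1*, which like *Per2* is also induced by neuronal activity and light, ranged from 46.5 to 64.8 CPM in cortex and from 38.6 to 53.8 CPM in hippocampus, and was lower in hippocampus in 8 of 10 mice (log2 fold change -0.21, SE 0.07, adjusted p = 0.00921). *Per3* ranged from 11.2 to 15.4 CPM and from 8.09 to 12.4 CPM, and was lower in all 10 mice (log2 fold change -0.34, SE 0.09, adjusted p = 0.00228). The 3 *Per* genes thus differed in direction. *Cry1*, a strong repressor of the dimer, ranged from 19.4 to 30.3 CPM in cortex and from 11.6 to 22.2 CPM in hippocampus and had the second largest fall (log2 fold change -0.47, SE 0.11, adjusted p = 0.00100, lower in 9 of 10 mice). *Cry2* ranged from 111 to 132 CPM and from 97.2 to 129.9 CPM and had the smallest fold change of the 10 (log2 -0.18, SE 0.04, adjusted p = 0.00233, lower in 8 of 10 mice).

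*Dbp*, the output gene, had 19.7, 14.1, 18.7, 20.4 and 20.0 CPM in cortex of WT mice 1 to 5 and 23.9, 18.4, 13.9, 17.7 and 18.9 CPM in cortex of Ube3aOE mice 6 to 10. In hippocampus it had 14.6, 12.5, 15.9, 14.5 and 16.6 CPM and 15.6, 15.0, 13.7, 20.3 and 14.3 CPM. Only mouse 9, with the highest striatal marker sum in hippocampus, had more *Dbp* in hippocampus than in cortex. The log2 fold change was -0.28 (SE 0.09, adjusted p = 0.0159), with the largest adjusted p of the 10: without Ube3aOE mouse 6 it was -0.23 and did not pass (adjusted p = 0.0512, the highest over all alternatives, which began at 0.00535).

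Of 22 other genes of the loops that were tested, 14 differed between the tissues, 6 higher and 8 lower in hippocampus, where 50.9% of all genes did. Those with the largest differences were *Rorb* (log2 fold change -2.42, SE 0.19), an activator at ROREs that is also a marker of neocortex and counted among those markers above, and *Npas2* (-2.01, SE 0.22), a forebrain relative of *Clock* that also pairs with BMAL1. *Npas2* ranged from 38.9 to 57.9 CPM in cortex and from 7.41 to 28.0 CPM in hippocampus. *Clock* and *Npas2*, both partners of BMAL1, thus differed between the tissues in opposite directions. Lower in hippocampus were also *Hlf* (-0.58, SE 0.12), which with *Dbp* belongs to the PAR bZIP factors, *Usp2* (-0.45, SE 0.07), a deubiquitinase, and *Ciart* (-0.42, SE 0.13), a repressor of the dimer. Higher were *Fbxl21* (0.75, SE 0.15), an F-box protein that acts on CRY, *Wee1* (0.56, SE 0.13), a clock-controlled cell cycle kinase, and *Bhlhe41* (0.48, SE 0.10), a repressor at E-boxes. Adjusted p values for these 8 genes ran from 1.11e-08 to 0.0122. Of 12 genes that respond to neuronal activity, glucocorticoids or temperature, 3 were higher and 1 lower in hippocampus, against the same background of 50.9%. Among them *Arc* (1.14, SE 0.12) and *Fos* (1.10, SE 0.17), induced by activity, had larger differences than any of the 10 clock genes, and their relation to *Per1* and *Per2* was not tested.

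The second comparison asked whether extra *Ube3a* changed clock transcripts. No clock gene passed in cortex or in hippocampus (adjusted p of at least 0.960 in cortex and 0.668 in hippocampus, edgeR's quasi-likelihood test). The background was 1 called gene in each tissue, *Ube3a* itself (0.00669% of 14947 genes in cortex and 0.00657% of 15220 in hippocampus). At an unadjusted p under 0.05 none of the 10 clock genes passed in either tissue. Of all genes tested, 663 had such a p in cortex and 1098 in hippocampus. At these shares, none of 10 says little about the clock genes. DESeq2 and limma voom also called none of the 10. For *Arntl*, the gene of the reported target, the log2 fold change of Ube3aOE over WT was -0.10 in cortex (95% interval -0.31 to 0.11) and -0.07 in hippocampus (-0.26 to 0.11). With 1 mouse left out in turn it ran from -0.16 (without mouse 6) to -0.044 (without mouse 8) in cortex and from -0.12 (without mouse 6) to -0.036 (without mouse 8) in hippocampus, and without the 2 WT mice whose sex-linked genes go against their labels it was -0.014 in hippocampus. *Ube3a* itself had 1.31 and 1.32. Mean *Arntl* was 40.0 ± 3.77 CPM in WT and 37.4 ± 5.48 CPM in Ube3aOE cortex (SD, n = 5), and 33.0 ± 2.98 and 31.4 ± 2.92 CPM in hippocampus, so each difference was smaller than the SD between mice of 1 group.

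The intervals bound what could have been missed. Those of *Clock* reached from -0.19 to 0.22 in cortex and from -0.06 to 0.27 in hippocampus, those of *Per1* from -0.27 to 0.08 and from -0.15 to 0.26, and those of *Cry2*, the tightest, from -0.16 to 0.07 and from -0.00435 to 0.29. The widest were those of *Nr1d1* in cortex (-0.43 to 0.29) and *Cry1* in hippocampus (-0.13 to 0.54). A p that misses the threshold does not show that the genotypes were alike. The median log2 fold change of the 10 genes was 0.07 in hippocampus and -0.03 in cortex, beside 0.0023 and 0.0033 over all genes tested, and in each tissue the fold changes of 5 of the 10 turned sign under an alternative. The genotypes overlapped for all 10 genes in both tissues. With 5 mice a group such overlap is likely for any gene, and its share over all genes was not computed, so it does not show that the genotypes were alike. By the same test, none of the 22 other clock genes or the 12 acute response genes passed in either tissue.

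**Figure D2:**
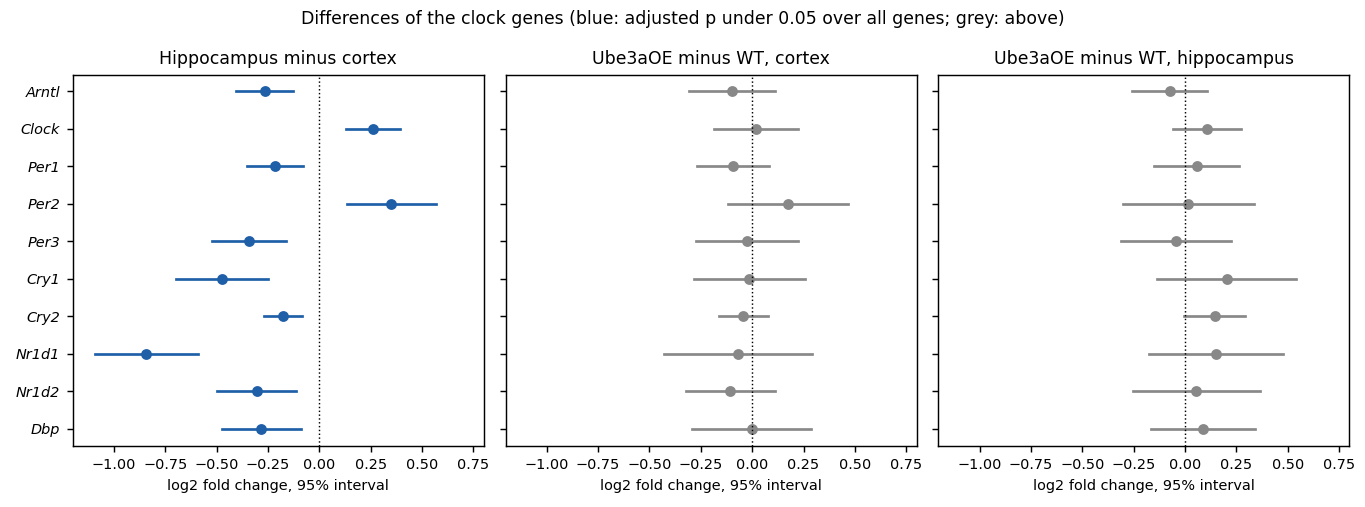
Log2 fold changes of the clock genes (horizontal axes) with 95% intervals for hippocampus minus cortex (left) and for Ube3aOE minus WT in cortex (middle) and hippocampus (right), with adjusted p under 0.05 in blue. All 10 intervals on the left leave out 0, from -0.84 for *Nr1d1* to 0.35 for *Per2*, while those on the right and in the middle reach across 0 or to its edge.

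*Cry2* in hippocampus came closest to a difference. It had 97.6, 106, 105, 97.2 and 105 CPM in WT mice 1 to 5 and 105, 106, 103, 119.9 and 129.9 CPM in Ube3aOE mice 6 to 10, so that mice 9 and 10 stood above the other 8 libraries. In cortex the values were 120.4, 111, 123, 132 and 131 CPM and 117, 119.8, 115, 118 and 127 CPM, without such a split. The log2 fold change was 0.14 in hippocampus (SE 0.07, unadjusted p = 0.0561, adjusted p = 0.668) and -0.04 in cortex (SE 0.06, adjusted p = 0.976). Tested directly, the difference between these fold changes was 0.19 (SE 0.09, unadjusted p = 0.0409, adjusted p = 0.997), and no gene of the 15661 tested passed this interaction test after adjustment (0%, with 590 at an unadjusted p under 0.05), nor did any by DESeq2 or limma voom. That fit held no mouse term. With the mouse as a block the difference for *Cry2* was 0.19 (SE 0.08, adjusted p = 0.797, edgeR's quasi-likelihood test). Mice 9 and 10 had the highest striatal and thalamic marker sums in hippocampus, and their part was not tested. Without mouse 10 the hippocampal fold change of *Cry2* fell to 0.09 (adjusted p = 0.951, in a range of 0.367 to 0.995 over all alternatives).

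For the repressor *Cry1*, hippocampus had 13.7, 15.4, 17.6, 19.2 and 16.1 CPM in WT mice 1 to 5 and 11.6, 21.7, 19.7, 22.2 and 19.4 CPM in Ube3aOE mice 6 to 10. The Ube3aOE group thus held the lowest library of the tissue (mouse 6) together with the 4 highest (mice 7 to 10), and the log2 fold change of 0.20 (SE 0.16) did not pass (adjusted p = 0.738). It was 0.34 without mouse 6 (adjusted p = 0.288, the lowest over all alternatives, which reached 0.995) and 0.047 without mice 7 and 9. In cortex *Cry1* had 20.6, 19.4, 28.4, 27.4 and 27.1 CPM in WT mice and 23.8, 30.3, 20.9, 21.6 and 25.1 CPM in Ube3aOE mice, with a log2 fold change of -0.01 (SE 0.13). *Nr1d2*, the repressor of *Arntl*, had 22.9, 24.9, 22.0, 29.3 and 27.5 CPM in WT hippocampus and 20.0, 20.6, 27.4, 30.0 and 33.8 CPM in Ube3aOE hippocampus. Mice 6 and 7 lay under the WT range and mice 9 and 10 above it, so that the means were close (25.3 ± 3.07 and 26.4 ± 5.99 CPM, SD, n = 5). In cortex the means of *Nr1d2* were 33.1 ± 3.80 and 30.8 ± 4.09 CPM.

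The remaining *Per* genes overlapped throughout. *Per1* averaged 55.4 ± 5.58 CPM in WT and 51.9 ± 5.24 CPM in Ube3aOE cortex (SD, n = 5), and 45.3 ± 5.17 and 47.2 ± 5.55 CPM in hippocampus. *Per3* averaged 12.9 ± 1.70 and 12.7 ± 1.71 CPM in cortex, and 10.2 ± 1.58 and 9.96 ± 1.15 CPM in hippocampus. For *Per2* the means were 10.1 ± 1.86 and 11.4 ± 1.31 CPM in cortex and 13.6 ± 2.94 and 13.8 ± 1.27 CPM in hippocampus. The larger WT spread of *Per2* came with WT mouse 2, without which the hippocampal fold change was -0.11 instead of 0.02 on the log2 scale. Over the 10 genes, the difference of the genotype effects (hippocampus minus cortex) had a median of 0.12 on the log2 scale and a median size of 0.15, beside 0.00064 and 0.11 over all genes tested. It was largest for *Nr1d1* (0.22, SE 0.24) and *Cry1* (0.22, SE 0.22). With the mouse as a block these were 0.23 (SE 0.16, adjusted p = 0.811) and 0.20 (SE 0.17, adjusted p = 0.838) by edgeR's quasi-likelihood test. With 1 mouse left out in turn they ran from 0.14 (without WT mouse 1) to 0.36 (without WT mouse 2) for *Nr1d1* and from 0.11 (without Ube3aOE mouse 9) to 0.35 (without Ube3aOE mouse 6) for *Cry1*.

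The spread between mice of 1 genotype and tissue differed widely among the clock genes. As an SD of log2 CPM it was 0.29 for *Nr1d1*, 0.27 for *Cry1*, 0.26 for *Per2*, 0.23 for *Nr1d2*, 0.22 for *Dbp*, 0.19 for *Per3*, 0.16 for *Arntl*, 0.15 for *Per1* and *Clock* and 0.10 for *Cry2*. Of the 10, 9 exceeded 0.13, the median of 10081 genes with a mean of at least 10 CPM. *Nr1d1* exceeded 93.1% of those genes and *Cry1* 91.4%, while *Cry2* exceeded 23.8%. These shares are descriptions, since the spread depends on the level of a gene. The activators *Arntl* and *Clock* were thus among the 4 genes with the smallest spread.

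**Figure D3:**
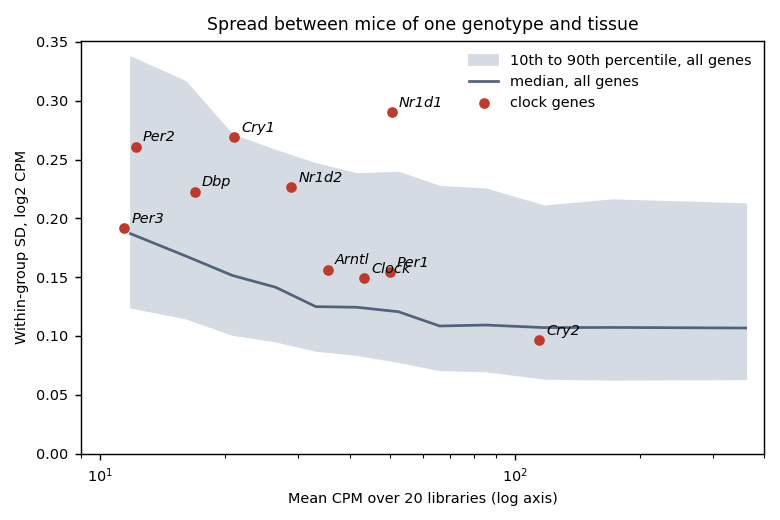
Within-group SD of log2 CPM (vertical axis) against mean CPM over 20 libraries (horizontal log axis) for the clock genes (red points), with the median (line) and the 10th to 90th percentile (band) of all genes of like level. *Nr1d1*, at 0.29, lies above the band, *Cry2*, at 0.10, lies under the median line, and the other genes lie on or above it.

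The third comparison asked whether a mouse with much of a clock transcript in 1 tissue also had much of it in the other. Over the 10 mice, Pearson's r between hippocampus and cortex (log2 CPM) was positive for 9 of the 10 clock genes and highest for *Arntl*, *Per2* and *Clock*. None passed after adjustment over all 15661 genes (permutation test, adjusted p of at least 0.228), and 0.0319% of all genes (5) did. Over all genes the median r was 0.27, r was above 0 for 74.5% of them, and 13.8% had an unadjusted p under 0.05, as did 2 of the 10 clock genes.

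For *Arntl* r was 0.79 (permutation p = 0.0130, adjusted p = 0.241) and Spearman's rho 0.72 (permutation p = 0.0237, adjusted p = 0.345). Ube3aOE mice 8, 9 and 10 and WT mouse 2 were low in both tissues, at 31.4 to 35.0 CPM in cortex and 28.5 to 30.2 CPM in hippocampus, and WT mouse 1 and Ube3aOE mouse 6 were high in both. WT mouse 4 was low in hippocampus (30.0 CPM) and high in cortex (42.0 CPM), and without it r was 0.92. The hippocampus library of mouse 4 had the highest thalamic marker sum of the WT mice (478 CPM). After group means were taken out, the correlation across all genes between the 2 libraries of mouse 4 was -0.0367. It was above 0.1 in the other 9 mice. The part of either in the *Arntl* values was not tested. Without mice 5 and 6, farthest from the median in hippocampus, r was 0.82, and with the genotype means taken out it was 0.77 (permutation p = 0.0199, adjusted p = 0.319).

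For *Clock* r was 0.77 (permutation p = 0.0104, adjusted p = 0.228) and rho 0.67 (permutation p = 0.0393, adjusted p = 0.403). WT mouse 2 was the lowest and Ube3aOE mouse 10 the highest in both tissues, and without these 2 mice r was 0.20, so the relation rests on them. *Per2* had r = 0.79 but rho = 0.19 (permutation p = 0.0652 and 0.608, adjusted p = 0.391 and 0.871). WT mouse 2, at 6.80 and 8.37 CPM, stood apart from the other 9 mice in both tissues, and without mice 2 and 10 r was -0.80. The positive r of *Per2* therefore rests on WT mouse 2, without which it was -0.11.

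The other 7 clock genes had lower values. Pearson's r was 0.54 for *Per1* (rho 0.49), 0.44 for *Nr1d1* (0.16), 0.40 for *Dbp* (0.32), 0.35 for *Per3* (0.49), 0.33 for *Nr1d2* (0.36), 0.29 for *Cry1* (0.32) and -0.02 for *Cry2* (-0.27). Permutation p values for these r ran from 0.106 for *Per1* to 0.961 for *Cry2*, with adjusted p from 0.457 to 0.989, and those for rho from 0.155 to 0.660. Without the 2 mice farthest from the median in hippocampus, r fell to 0.22 for *Per1*, to -0.08 for *Nr1d1* and to -0.47 for *Cry2*, and rose to 0.58 for *Dbp*. It was 0.26 for *Per3*, 0.17 for *Cry1* and 0.11 for *Nr1d2*. For *Nr1d1*, the gene with the largest spread between mice, the positive value thus rests on mouse 8, the lowest in both tissues, without which r was -0.00048.

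**Figure D4:**
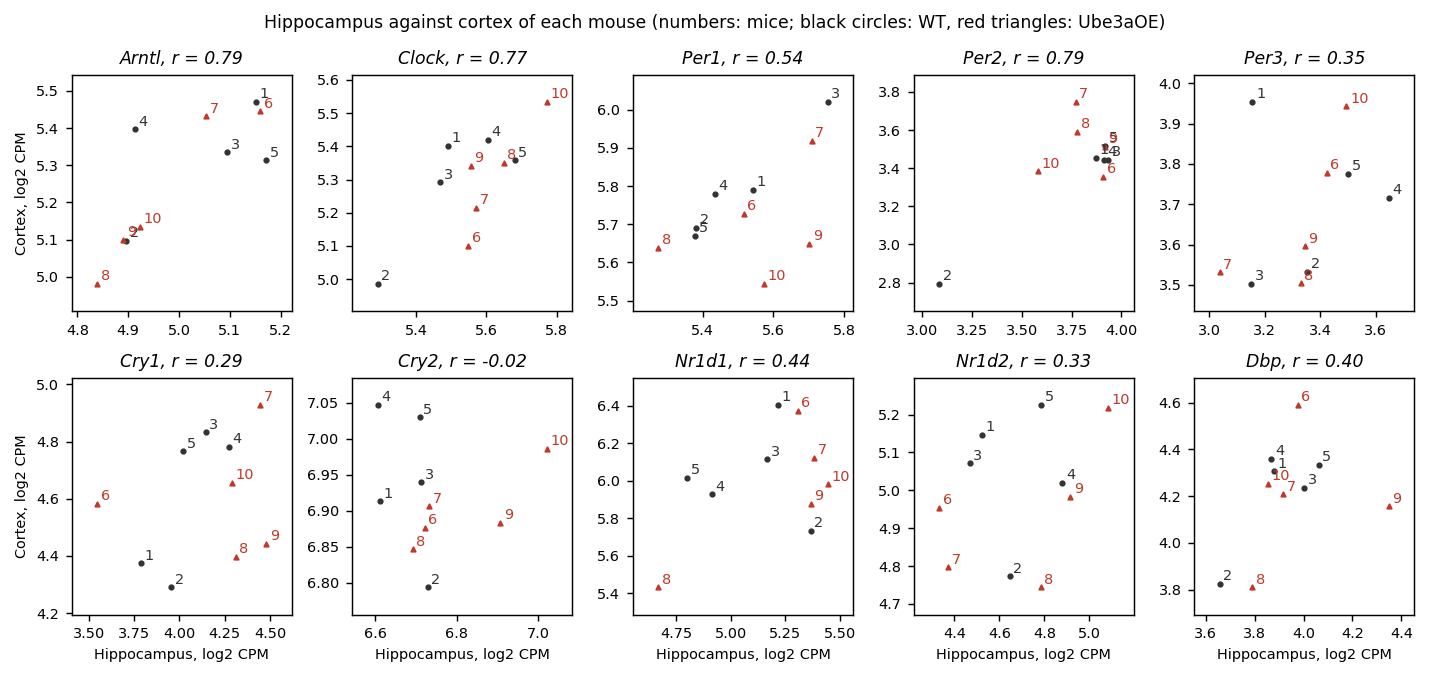
Log2 CPM in hippocampus (horizontal axes) against cortex (vertical axes) of each mouse, numbered, for the 10 clock genes, with Pearson's r in each title. The mice of *Arntl* spread along a rising line (r = 0.79), while in *Per2* (r = 0.79) WT mouse 2 lies alone at the lower left and *Cry2* shows no trend (r = -0.02).

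How the clock genes varied with each other was described over the 45 pairs, with the mean log2 CPM of both tissues of each mouse. No pair passed after adjustment over 156600 pairs of a clock gene with a tested gene (0% of these pairs passed). With 100000 resamples p could not fall below 1.0e-05, so 1 pair alone could not have passed, whatever its r. Of the 45 pairs, 5 had an unadjusted p under 0.05, against a background of 9.73% of the 156600 pairs. The median size of r was 0.35 for the 45 pairs and 0.30 for the 156600. Highest were *Cry2* with *Nr1d2* (r = 0.76, permutation p = 0.00785, adjusted p = 0.375, rho 0.71, permutation p = 0.0261), *Clock* with *Nr1d2* (r = 0.74, permutation p = 0.0124, adjusted p = 0.406, rho 0.83, permutation p = 0.00500) and *Per3* with *Nr1d2* (r = 0.72, permutation p = 0.0211, adjusted p = 0.446, rho 0.75, permutation p = 0.0175). Without the 2 mice farthest from the median of the first gene these were 0.45, 0.76 and 0.43. *Nr1d2* and its paralog *Nr1d1* had r = -0.15, and *Arntl* and *Clock* had r = -0.07. Lowest was *Per1* with *Per3* (r = -0.56, permutation p = 0.0940, adjusted p = 0.576, rho -0.41, permutation p = 0.246), and without mice 3 and 7 it was 0.19.

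Within 1 tissue the pairs differed. In cortex the median r was 0.41 and 8 of the 45 pairs had an unadjusted p under 0.05, against a background of 12.1% of the pairs of a clock gene with a tested gene. In hippocampus the median r was 0.13 and 2 of the 45 had such a p, against 8.20%. The median size of r was 0.41 in cortex and 0.30 in hippocampus, beside 0.32 and 0.31 to all genes. The difference between the tissues was not tested. The 3 pairs among *Arntl*, *Nr1d1* and *Dbp* were singled out after their values were seen. In cortex *Arntl* had r = 0.87 with *Nr1d1* (permutation p = 0.00032, rho 0.93, permutation p = 0.00038) and 0.79 with *Dbp* (0.00303, rho 0.73, 0.0207). *Nr1d1* had r = 0.83 with *Dbp* (permutation p = 0.00429, rho 0.64, permutation p = 0.0544). After adjustment over the 156600 pairs none passed in cortex, where again 1 pair alone could not have passed. In hippocampus the same pairs had r = 0.05, 0.20 and 0.10 (permutation p = 0.887, 0.601 and 0.780) and rho of -0.07, 0.47 and -0.12 (permutation p = 0.866, 0.177 and 0.757). Without the 2 mice farthest from the median of the first gene, r in cortex was 0.73, 0.54 and 0.83, and in hippocampus 0.30, 0.07 and 0.08. The cortex pairs share WT mouse 2 and Ube3aOE mouse 8, which were low for all 3 genes there (34.1 and 31.4 CPM of *Arntl*, 53.1 and 43.0 of *Nr1d1*, 14.1 and 13.9 of *Dbp*), and those libraries are the one with the lowest share of reads on genes and the one with the highest hippocampal markers. Their part was not tested.

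**Figure D5:**
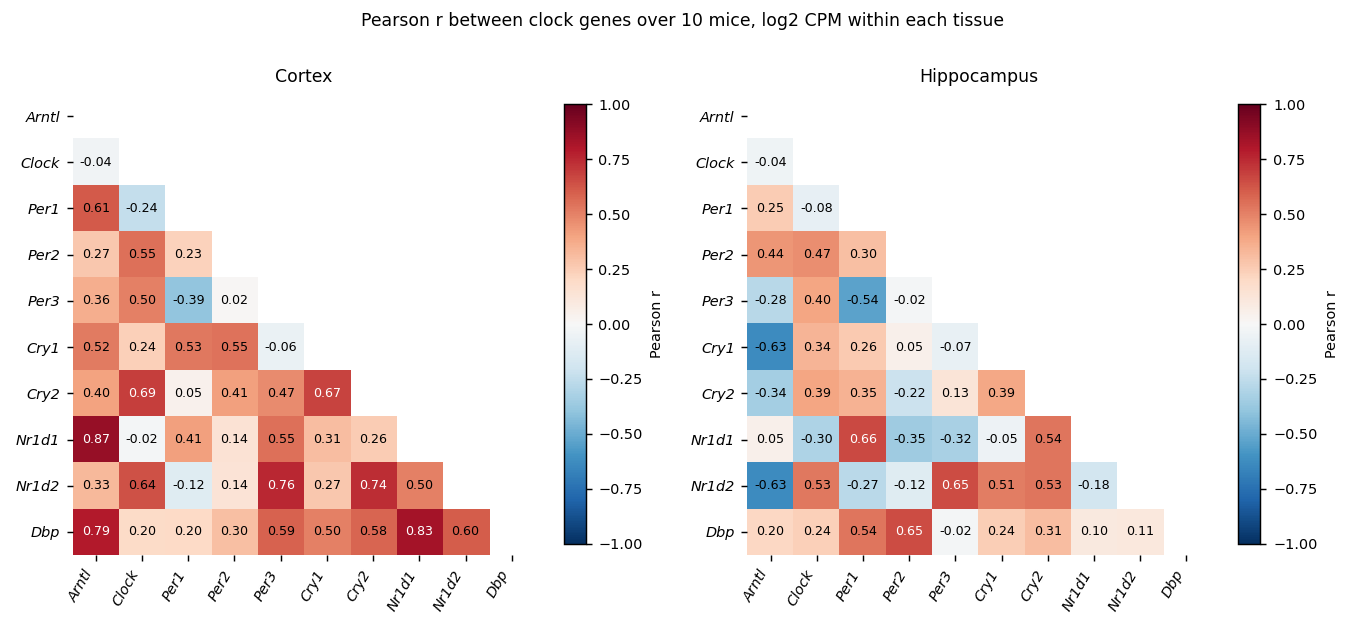
Pearson's r over 10 mice (colour scale from -1 to 1, values printed) for each pair of clock genes within cortex (left) and hippocampus (right). *Arntl*, *Nr1d1* and *Dbp* form the strongest trio in cortex (0.87, 0.79 and 0.83), and the same pairs stand at 0.05, 0.20 and 0.10 in hippocampus.

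Over all tested genes, those most like *Arntl* over the 10 mice (mean of both tissues) were *Frzb* (r = 0.94, rho 0.90), *Fcor* (r = 0.93, rho 0.87) and *Glmp* (r = 0.93, rho 0.88). Those most like *Dbp* were *Inf2* (r = 0.95, rho 0.87), *Ccdc187* (r = 0.92, rho 0.77) and *Kcnk13* (r = 0.91, rho 0.70). These are the highest of 15660 values for each gene and none passed (permutation p of r from 7.0e-05 to 0.00088, adjusted p from 0.233 to 0.293). With these resamples 1 pair alone could not have passed. *Glmp* had r = 0.86 with *Arntl* in hippocampus and -0.11 in cortex, whereas *Frzb* had 0.75 and 0.79.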

How the data were processed

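The authors deposited, per library, the count of reads on each gene as whole numbers without normalization. *Per* the labels, their processing notes name HISAT2 2.1.0, HTSeq 0.11.2 and the build GRCm38 (mm10), and the strand setting is not given in the sources used here. Counts were fitted with edgeR 4.0.16 in R 4.3.3 (TMM, filterByExpr, robust quasi-likelihood F test, Benjamini-Hochberg over all genes, threshold 0.05). The tissues and the interaction used all 20 libraries, the genotypes the 10 of each tissue. DESeq2 1.42.0 and limma voom 3.58.1 were alternatives. Correlations over mice took log2 CPM (prior count 2) and two-sided permutation tests with 100000 resamples (Python 3.11.15, numba 0.67.0), adjusted over all genes tested. The smallest p that these resamples allow is 1.0e-05, so over 15661 genes or 156600 pairs 1 result alone could not pass. The fits and correlations were tested on simulated data. The number in the labels gives the mouse, so libraries are paired by animal. After group means were taken out, the median correlation across genes between the tissues of an animal was 0.215, above 0.1 in 9 of 10 mice (mouse 4: -0.0367). Intervals are 95% intervals and rest on the spread between libraries of 1 genotype and tissue. The main fits of the tissues and the interaction held no mouse term, so their SEs leave out the pairing by animal. With the mouse as a block, the SE between the tissues was smaller for all 10 clock genes (0.04 instead of 0.06 for *Clock*, 0.06 instead of 0.10 for *Per2*). The clock genes and all lists were chosen with earlier results of these data known. Named are the 10 genes, *Ube3a*, the 8 called genes of the other clock list with the largest fold changes, and the 3 genes most like *Arntl* and *Dbp*. Any other was chosen after its values were seen. Alternatives were other scaling factors, no filter, labelled sex, left-out mice and the mouse as a block. Of the other clock list, 1 gene is not reported here.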

Additional observations from a re-analysis of the deposited data

Results flagged for a closer look

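Of 40 groups of 5 mice (10 genes in 4 groups), 5 had a mouse far from the other 4, where chance alone would give about 2. WT mouse 2 accounts for 3 of them: it had 8.37 CPM of *Per2* in hippocampus (others 14.5 to 15.2), 6.80 CPM of *Per2* in cortex (others 10.8 to 11.3) and 14.1 CPM of *Dbp* in cortex (others 18.7 to 20.4). Its cortex library had the lowest share of reads on genes (69.7%), while its hippocampus library, at 80.8%, did not stand apart in that measure. That hippocampus library had the highest neocortical marker sum of its tissue (379.5 CPM). The parts of read quality and of this marker sum were not tested. Ube3aOE mouse 6 had 11.6 CPM of *Cry1* in hippocampus (others 19.4 to 22.2). Ube3aOE mouse 8 had 25.3 CPM of *Nr1d1* in hippocampus (others 39.4 to 43.4).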

How the results depend on the processing

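The counts of clock genes called held under every alternative (10 between the tissues, 0 for genotype, interaction, covariation and pairs), except that 9 were called between the tissues without Ube3aOE mouse 6 and without the 2 WT mice whose sex-linked counts go against their labels. With genotype means removed, the permutation test had only 14400 assignments of mice. No gene of the 15661 then passed for covariation (smallest adjusted p 0.109), so the 0 for covariation and pairs there says little. With the mouse as a replicate block, which the pairing by animal allows, all 10 clock genes were called between the tissues and 0 in the interaction. The main fit called 50.9% of all genes between the tissues, so such calls are common. The share of all genes called with the block is not given here. No direction between the tissues turned. The genotype differences that turned sign were small and never called. Without the 2 mice of the highest *Ttr* hippocampus libraries (mice 7 and 9, an alternative chosen after seeing the data), the log2 fold changes were -0.042 for *Per1*, -0.013 for *Per2*, 0.045 for *Per3* and -0.022 for *Dbp* in hippocampus, 0.046 for *Per3* and 0.024 for *Dbp* in cortex, and -0.050 for the interaction of *Dbp*. With the labelled sex as a covariate, the cortex values were 0.024 for *Per3*, 0.019 for *Cry1* and 0.034 for *Dbp*, and without the 2 mice that go against their labels 0.11 for *Cry1* and 0.040 for *Dbp*. With 1 mouse left out in turn, the hippocampus values ranged from -0.11 to 0.0659 for *Per2*, from -0.093 to 0.034 for *Per3*, from -0.048 to 0.15 for *Nr1d2* and from -0.013 to 0.14 for *Dbp*. The cortex values ranged from -0.056 to 0.067 for *Clock*, from -0.099 to 0.047 for *Per3*, from -0.10 to 0.044 for *Cry1*, from -0.18 to 0.041 for *Nr1d1* and from -0.11 to 0.084 for *Dbp*, and those of the interaction from -0.024 to 0.062 for *Arntl*, from -0.14 to 0.061 for *Per3* and from -0.036 to 0.20 for *Dbp*. Between hippocampus and cortex of a mouse, r with 1 mouse left out ranged from -0.11 to 0.89 for *Per2*, from -0.38 to 0.24 for *Cry2* and from -0.00048 to 0.57 for *Nr1d1*. For *Cry2* it was 0.20 with genotype means removed, 0.21 without TMM factors, 0.045 without the mice that go against their labels and 0.067 without the mice of the highest *Ttr* libraries. The cause of these changes was not tested. All 10 genes had at least 91 reads in every library. The intervals given for them rest on the spread between libraries, in which differences between mice and other sources of variation cannot be told apart.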
